A study of Mus musculus with 16 samples.

Results

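The genes of the NF-κB subunits and their inhibitors were examined in cultures enriched for chondrocytes from the epiphyses of newborn mice. The set holds 10 of the 55414 gene identifiers counted: the 5 Rel family subunits Nfkb1, Nfkb2, Rela, Relb and Rel, and the 5 inhibitors Nfkbia, Nfkbib, Nfkbie, Nfkbiz and Tnfaip3. The members were named by gene symbol with earlier results of these data known, and all 10 passed the filter on low counts in every comparison. RNA-Seq was done on 16 libraries, labelled as biological replicates, with 4 in each of 4 groups. The groups were control cells with vehicle, Notch2 mutant cells with vehicle, control cells with TNFα and Notch2 mutant cells with TNFα. The Notch2 mutant cells came from mice heterozygous for Notch2tm1.1Ecan, an allele present in every tissue that carries a stop codon ahead of the PEST domain of NOTCH2, and the control cells came from wild type littermates. Vehicle was PBS, TNFα was given at 50 ng/ml, both for 6 h, and male and female cells were pooled in every library. The sample annotation gives the withdrawal of serum for the TNFα groups only, whereas the study's text gives it for both, so that a comparison of TNFα with vehicle may also hold the withdrawal of serum.

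NF-κB is a dimer of Rel family proteins that waits in the cytoplasm bound to IκB proteins. Ligation of a TNF receptor activates the IκB kinases, IκB is degraded, and the freed dimer enters the nucleus. There it binds κB sites, also at the genes of its own subunits and inhibitors, and the induced inhibitors make for negative feedback. In cartilage the pathway is known for driving chemokines, nitric oxide synthase and proteases that degrade the matrix.

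The identity of the cells and the genotype were checked first. The summed level of 16 chondrocyte markers, in counts per 1000000 counts on genes (CPM), was between 52003 and 55798 in control cells with vehicle and between 20468 and 23337 in Notch2 mutant cells with TNFα. Col2a1 alone had a mean of 37603 CPM in control vehicle libraries. In the same 2 groups 6 markers of fibroblasts and perichondrium summed to between 19443 and 21398 CPM and between 23191 and 27690 CPM. Of 10 lymphocyte markers, 9 were at 0 in every library and the exception was Cd4, whereas 15 macrophage markers summed to between 78.6 and 86.9 CPM in control vehicle libraries. Heyl, a Notch target gene, was 8.21-fold higher in Notch2 mutant cells with vehicle and 5.50-fold higher with TNFα (edgeR quasi-likelihood tests, adjusted p = 6.25e-07 and 0.000144 after the Benjamini-Hochberg method over all genes tested). Heyl was low, at 0.152 to 0.298 CPM in control and 1.44 to 2.28 CPM in Notch2 mutant vehicle libraries. With TNFα it was at 0.0788 to 0.549 and 1.17 to 1.99 CPM. Notch2 itself was 1.18-fold higher with vehicle, which was not called, and 1.44-fold with TNFα (edgeR adjusted p = 0.283 and 0.0178). Counts on genes ranged from 3439726 in Notch2 mutant TNFα replicate 4 to 44237300 in Notch2 mutant vehicle replicate 4. The lowest raw count of a member in any library was 26, for Rel.

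Control vehicle replicate 4 stood apart from the other 3 libraries of its group. On a scale from the mean of the other control vehicle libraries (0%) to the mean of control TNFα replicates 1 to 3 (100%), it lay at 7.62 to 26.2% for the 9 members that rose with TNFα, with a median of 15.01%. Control TNFα replicate 4 lay at 73.5 to 95.1%, with a median of 83.7%. The same was seen in 314 other induced genes, at a median of 15.6% for the vehicle library and 81.1% for the TNFα library. Icam1, a target gene, was at 439 CPM in that vehicle library and at 34.4 to 40.4 CPM in the other 3. Most results for the members that rest on control vehicle replicate 4 are therefore given with and without it. Some are also given without control TNFα replicate 4 or without both libraries. The source of the values of these libraries was not tested.

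**Figure D1:**
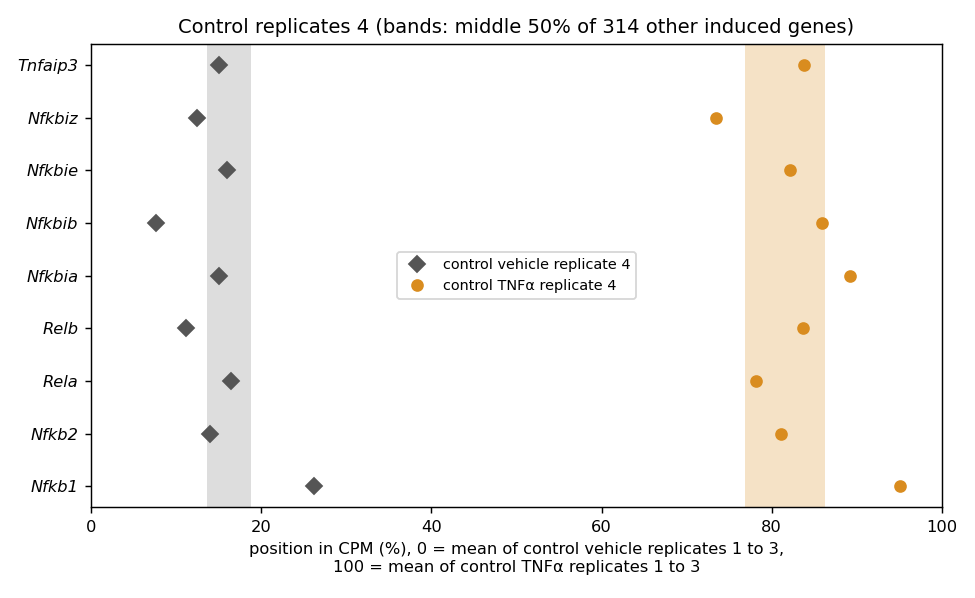
Position of the 2 control replicates numbered 4 in CPM, from 0% (mean of control vehicle replicates 1 to 3) to 100% (mean of control TNFα replicates 1 to 3), for the 9 members that rose with TNFα. The vehicle library (diamonds) lies at 7.62 to 26.2% and the TNFα library (circles) at 73.5 to 95.1%, and the bands give the middle 50% of 314 other induced genes.

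Because NF-κB is known to act on its own genes, the promoters of the members were searched for the κB consensus, the motif of 10 bases that NF-κB dimers bind, on both strands of windows reaching from 250 bases before to 50 bases after the start site. RefSeq windows (GRCm38.p6) were found for 7 members, and 5 of these held the motif, namely Nfkb2, Nfkbia, Nfkbie, Rel and Tnfaip3. Rela and Nfkbib held none of these letters. Of all 32851 windows in the reference, 4.51% held the motif, and of 27025 genes with a window 5.14% did. The 150 bases before the start site are printed for the 4 members with a match that rose with TNFα and for Rel, which held a match and did not pass the test with TNFα. Nfkb2 had 3 windows and Tnfaip3 had 2, and the one farthest upstream is shown. Capitals mark the matches, and matches that overlap run together as 1 stretch. The printed stretches are chr12:55492648-55492797 (reverse strand) for Nfkbia, chr17:45555550-45555699 for Nfkbie, chr10:19015411-19015560 (reverse strand) for Tnfaip3, chr19:46304587-46304736 for Nfkb2 and chr11:23770970-23771119 (reverse strand) for Rel, each read 5′ to 3′ along the gene.
Nfkbia: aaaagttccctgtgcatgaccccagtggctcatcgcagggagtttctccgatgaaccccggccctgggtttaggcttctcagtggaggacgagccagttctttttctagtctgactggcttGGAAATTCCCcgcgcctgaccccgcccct
Nfkbie: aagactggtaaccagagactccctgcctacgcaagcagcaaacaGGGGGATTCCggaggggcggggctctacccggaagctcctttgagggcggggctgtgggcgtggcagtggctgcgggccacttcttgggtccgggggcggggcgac
Tnfaip3: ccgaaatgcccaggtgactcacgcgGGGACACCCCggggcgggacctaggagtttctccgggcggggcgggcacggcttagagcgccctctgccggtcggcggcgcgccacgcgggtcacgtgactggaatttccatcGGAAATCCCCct
Nfkb2: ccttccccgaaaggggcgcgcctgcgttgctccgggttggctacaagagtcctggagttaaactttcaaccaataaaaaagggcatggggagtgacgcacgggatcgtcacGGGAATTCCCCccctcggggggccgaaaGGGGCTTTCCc
Rel: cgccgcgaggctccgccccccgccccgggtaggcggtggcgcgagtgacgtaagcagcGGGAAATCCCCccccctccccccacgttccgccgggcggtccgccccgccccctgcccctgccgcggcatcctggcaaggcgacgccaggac
The match of Nfkbia began 29 bases before the start site and that of Nfkbie 106 bases before it. In the windows shown, Tnfaip3 held matches at 125 and 12 bases, and Nfkb2 held overlapping matches at 39 and 38 bases and another at 11 bases. The middle window of Nfkb2 held a match 236 bases before its start site and another 10 bases after it. The latter also lay in the last window of Nfkb2, 225 bases before that start site. The other window of Tnfaip3 held no match. In Rel, matches overlapped at 92 and 91 bases. Whether NF-κB bound any of these letters was not tested.

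TNFα was compared with vehicle to ask how the subunit and inhibitor genes respond in each genotype. In control cells 9 of the 10 members rose and none fell, where 23.3% of 19338 genes tested rose, and 8 rose at least 2-fold, where 8.47% of genes did. In Notch2 mutant cells 9 rose, where 22.6% of 19633 genes did, and all 9 rose at least 2-fold, where 9.2% of genes did. The median log2 fold change of the 10 members was 2.24 in control cells, 2.45 without control vehicle replicate 4, and 2.62 in Notch2 mutant cells, beside 0.039, 0.038 and 0.026 over all genes tested. Without replicate 4 of both control groups the median in control cells was 2.53, beside 0.037 over all genes. The order of the 10 members by log2 fold change was the same in both genotypes, for 10 of 10 ranks, with or without control vehicle replicate 4. It ran Nfkbie, Tnfaip3, Nfkbia, Relb, Nfkb2, Nfkbiz, Rela, Nfkbib, Nfkb1 and Rel.

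**Figure D2:**
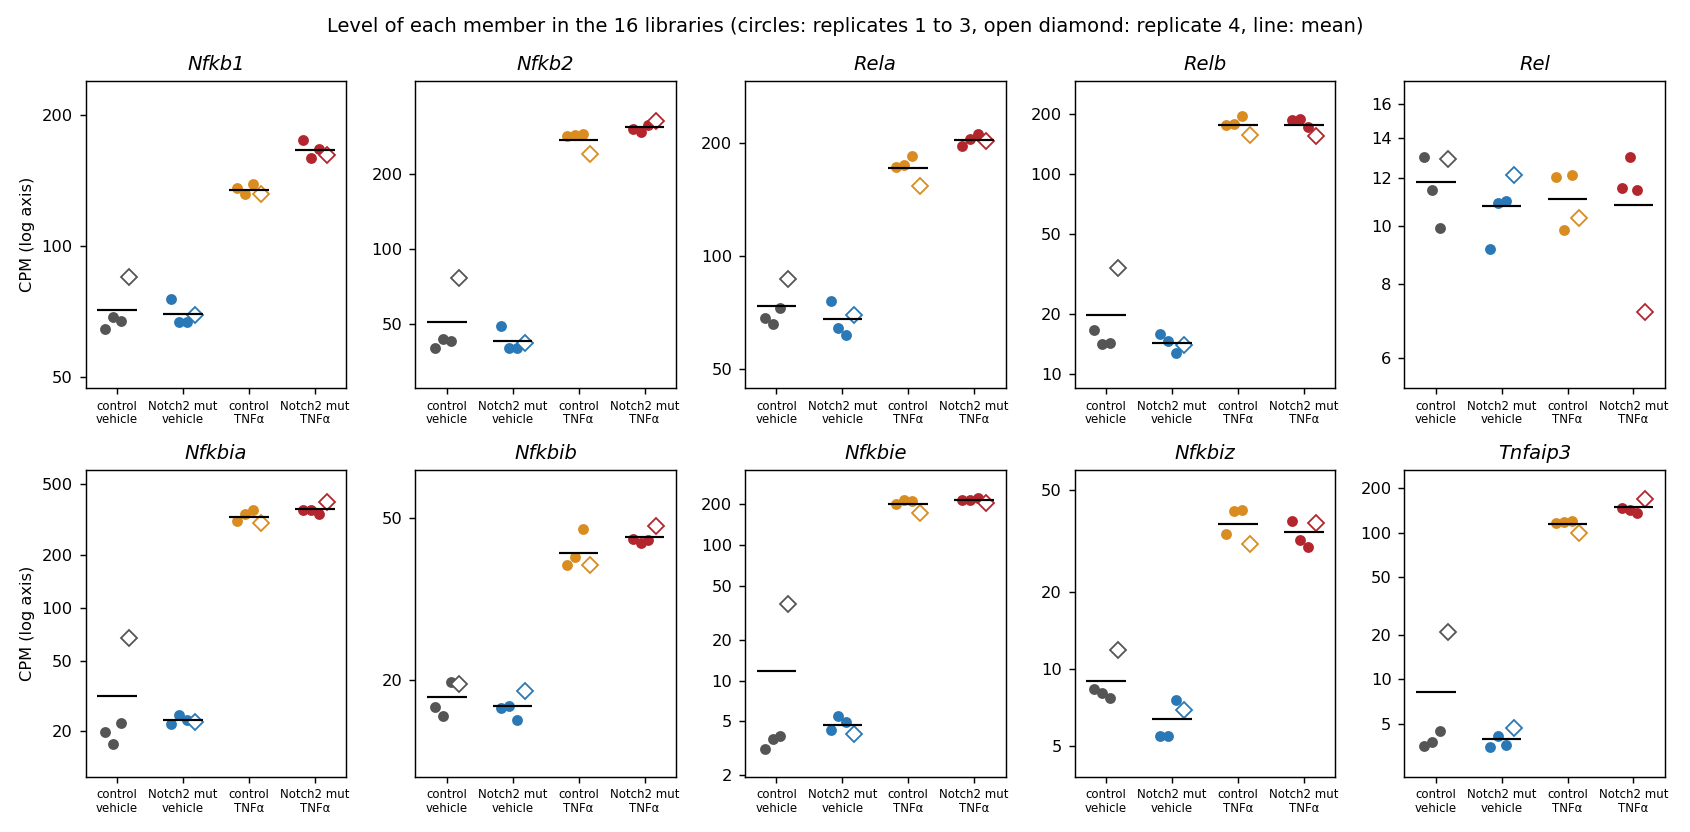
Level of each member in CPM (log axis) in the 16 libraries, by group; filled circles are replicates 1 to 3, open diamonds replicate 4 and lines the mean of 4. The TNFα libraries lie above the vehicle libraries for every member except Rel, and control vehicle replicate 4 lies above the rest of its group for every member except Rel and Nfkbib. How many of all genes separate by treatment in this way was not counted.

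Among the subunits, Nfkb1 and Nfkb2 encode the precursors p105 and p100, which are processed to the DNA-binding proteins p50 and p52 and inhibit NF-κB while unprocessed. The gene positions given here and for the other members are those of GENCODE M39 on GRCm39, and all 10 are protein-coding genes counted over their exons. Nfkb1 (ENSMUSG00000028163, chr3:135290264-135397742, reverse strand) was at 64.5, 68.6, 67.2 and 84.8 CPM in control vehicle replicates 1 to 4 and at 136, 132, 139 and 132 CPM with TNFα. The Notch2 mutant libraries held 75.6, 66.8, 66.9 and 69.6 CPM with vehicle and 175, 159.5, 167 and 162 CPM with TNFα. The vehicle and TNFα libraries did not overlap in either genotype, and control vehicle replicate 4 was the highest vehicle library. The share of all genes whose groups do not overlap was not counted. Separation of groups is therefore description only, for Nfkb1 and for the members below. Nfkb1 rose 1.89-fold in control cells (95% interval 1.69 to 2.12, log2 0.92, SE 0.077) and 2.39-fold in Notch2 mutant cells (2.18 to 2.61, log2 1.26, SE 0.063), with an edgeR adjusted p of 1.26e-07 and 1.99e-15. Without control vehicle replicate 4 the rise in control cells was 2.02-fold. Its span overlaps Gm43430 on the same strand.

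Nfkb2 (ENSMUSG00000025225, chr19:46292759-46303812, forward strand), the subunit gene of the noncanonical branch, changed more. It was at 40.1, 43.8, 42.9 and 76.6 CPM in control vehicle libraries and at 284, 288, 289.7 and 241 CPM with TNFα. Notch2 mutant cells had 49.2, 40.3, 40.2 and 42.1 CPM with vehicle and 305, 295, 314 and 328 CPM with TNFα. Control vehicle replicate 4 was high and control TNFα replicate 4 was low for their groups, and the treatments did not overlap. The rise was 5.44-fold in control cells (3.58 to 8.25), 6.56-fold without control vehicle replicate 4 (5.94 to 7.24) and 7.25-fold in Notch2 mutant cells (6.55 to 8.02), with edgeR adjusted p values of 0.000261, 6.24e-18 and 2.54e-22. The annotated span of Nfkb2 overlaps Psd and 4833438C02Rik on the opposite strand.

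Rela (ENSMUSG00000024927, chr19:5687493-5698161, forward strand) encodes p65, the transactivating subunit of the classical p50:p65 dimer. Its level was 68.3, 66.01, 72.7 and 86.7 CPM in control vehicle libraries and 172, 175, 184 and 154 CPM with TNFα. Vehicle and TNFα libraries of Notch2 mutant cells were at 75.8, 64.3, 61.5 and 69.6 CPM and at 196, 205, 211 and 202 CPM. No vehicle library reached a TNFα library. Rela rose 2.34-fold in control cells (2.03 to 2.70) and 3.01-fold in Notch2 mutant cells (2.73 to 3.31), with an edgeR adjusted p of 8.49e-07 and 3.9e-17. Without control vehicle replicate 4 the rise in control cells was 2.49-fold (2.28 to 2.72).

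Relb (ENSMUSG00000002983, chr7:19339017-19363425, reverse strand), whose product pairs mainly with p52 and p50, had the largest rise of the subunits. It was at 16.6, 14.2, 14.3 and 33.7 CPM in control vehicle libraries and at 175, 178, 195 and 156 CPM with TNFα. In Notch2 mutant cells it was at 15.8, 14.6, 12.7 and 14.04 CPM with vehicle and at 185, 188, 172 and 154 CPM with TNFα. Control vehicle replicate 4 was again the high library of its group, and the treatments did not overlap. Relb rose 8.91-fold in control cells (5.18 to 15.3), 11.7-fold without control vehicle replicate 4 (10.3 to 13.2) and 12.4-fold in Notch2 mutant cells (11.04 to 13.9), with edgeR adjusted p values of 0.000271, 9.31e-17 and 2.13e-23.

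Rel (ENSMUSG00000020275, chr11:23686847-23721264, reverse strand) encodes c-Rel, best known in lymphocytes, and was the member that passed no test with TNFα. Its level was 13.04, 11.5, 9.91 and 12.9 CPM in control vehicle libraries and 12.1, 9.82, 12.2 and 10.3 CPM with TNFα. The Notch2 mutant libraries held 9.16, 10.9, 11 and 12.2 CPM with vehicle and 11.6, 13.04, 11.5 and 7.17 CPM with TNFα. All 4 groups overlapped, and the lowest value was that of the shallowest library. The ratio of TNFα to vehicle was 0.934 in control cells (95% interval 0.793 to 1.10, edgeR adjusted p = 0.532) and 1.05 in Notch2 mutant cells (0.879 to 1.25, adjusted p = 0.702), so that a rise of more than 1.25-fold lay outside both intervals. This limit depended on the libraries used, as the ratio in Notch2 mutant cells was 1.155 (0.967 to 1.38) without replicate 4 of every group.

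Of the classical inhibitors, Nfkbia (ENSMUSG00000021025, chr12:55535332-55539432, reverse strand), which encodes IκBα, was the most abundant member per length with TNFα. Nfkbia was at 19.9, 16.9, 22.3 and 67.2 CPM in control vehicle libraries and at 312, 341, 356 and 302 CPM with TNFα. Notch2 mutant cells had 22.1, 24.8, 23.1 and 22.6 CPM with vehicle and 358, 359, 339 and 398 CPM with TNFα. Control vehicle replicate 4 exceeded every other vehicle library and no vehicle library reached the TNFα libraries. The rise was 10.3-fold in control cells (4.36 to 24.5), 16.6-fold without control vehicle replicate 4 (14.6 to 18.9) and 15.7-fold in Notch2 mutant cells (14.2 to 17.3). Their edgeR adjusted p values were 0.00194, 1.09e-14 and 3.14e-25. The span of Nfkbia overlaps Gm36634 on the opposite strand.

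Nfkbib (ENSMUSG00000030595, chr7:28457486-28466937, reverse strand) encodes IκBβ, which is resynthesized more slowly than IκBα. It was at 17.2, 16.4, 19.9 and 19.6 CPM in control vehicle libraries and at 38.4, 40.1, 46.9 and 38.4 CPM with TNFα. Vehicle and TNFα libraries of Notch2 mutant cells were at 17.1, 17.3, 15.98 and 18.8 CPM and at 44.4, 43.3, 44.1 and 47.7 CPM. Here control vehicle replicate 4 lay within its group, and the treatments did not overlap. Nfkbib rose 2.25-fold in control cells (2.00 to 2.53) and 2.56-fold in Notch2 mutant cells (2.29 to 2.86), with an edgeR adjusted p of 2.52e-10 and 3.69e-14. Without control vehicle replicate 4 the rise in control cells was 2.30-fold (2.03 to 2.61). Its span overlaps Sirt2 and Ccer2 on the opposite strand.

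Nfkbie (ENSMUSG00000023947, chr17:45866585-45874661, forward strand) encodes IκBε, another IκB with delayed resynthesis, and changed most of the 10. Its level was 3.15, 3.73, 3.92 and 36.4 CPM in control vehicle libraries and 200.2, 214, 210.2 and 172 CPM with TNFα. In Notch2 mutant cells it was 4.34, 5.49, 4.93 and 4.05 CPM with vehicle and 214, 212, 222 and 204 CPM with TNFα. Control vehicle replicate 4 was the highest vehicle library and stayed under every TNFα library. The rise was 46.2-fold in Notch2 mutant cells (40.7 to 52.3, edgeR adjusted p = 1.8e-26). In control cells it was 16.6-fold with all libraries (3.91 to 70.3, adjusted p = 0.00887) and 55.7-fold without control vehicle replicate 4 (47.7 to 65.1, adjusted p = 1.62e-17). Without replicate 4 of both control groups the rise in control cells was 58.4-fold (52.55 to 64.9).

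Nfkbiz (ENSMUSG00000035356, chr16:55631738-55659262, reverse strand) encodes IκBζ, an atypical IκB that works in the nucleus and can promote transcription of secondary response genes. It was at 8.40, 8.07, 7.72 and 11.9 CPM in control vehicle libraries and at 33.6, 41.5, 41.6 and 30.7 CPM with TNFα. The Notch2 mutant libraries held 5.51, 5.49, 7.57 and 6.95 CPM with vehicle and 37.9, 31.9, 30.1 and 36.97 CPM with TNFα. Vehicle and TNFα libraries were separate in both genotypes. Nfkbiz rose 4.09-fold in control cells (3.17 to 5.26) and 5.23-fold in Notch2 mutant cells (4.46 to 6.12), with an edgeR adjusted p of 4.7e-06 and 3.12e-16. Without control vehicle replicate 4 the rise in control cells was 4.58-fold (3.86 to 5.44).

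Tnfaip3 (ENSMUSG00000019850, chr10:18874201-18891405, reverse strand) encodes A20, a ubiquitin-editing enzyme that restrains the kinases above IκB. It was at 3.54, 3.73, 4.44 and 21.1 CPM in control vehicle libraries and at 116, 118, 120.5 and 99.7 CPM with TNFα. Notch2 mutant cells had 3.44, 4.11, 3.58 and 4.65 CPM with vehicle and 147, 143, 136 and 169.7 CPM with TNFα. Control vehicle replicate 4 was the high library of its group and remained under all TNFα libraries. Tnfaip3 rose 36.2-fold in Notch2 mutant cells (31.5 to 41.6, edgeR adjusted p = 6.98e-25). In control cells it rose 13.6-fold (5.09 to 36.5, adjusted p = 0.00214), and 29.2-fold without control vehicle replicate 4 (25.4 to 33.6, adjusted p = 3.32e-20). With DESeq2, 7 members were called higher in control cells because Nfkbie and Tnfaip3 received no adjusted p, and the same 9 were called higher in Notch2 mutant cells.

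**Figure D3:**
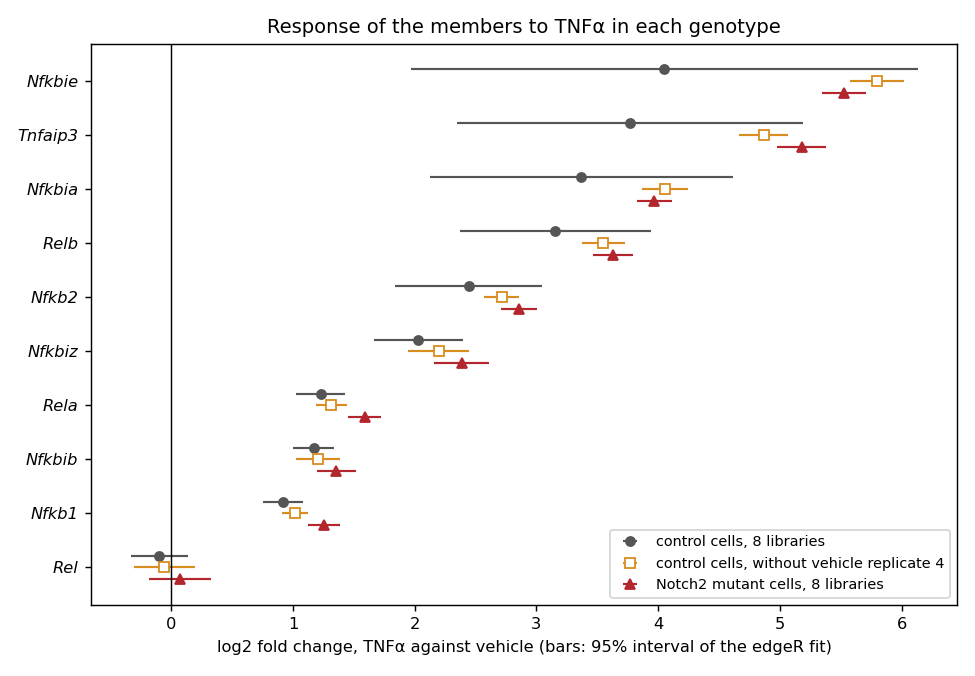
Log2 fold change of each member, TNFα against vehicle, with 95% intervals of the edgeR fit, in control cells with 8 libraries (circles), in control cells without vehicle replicate 4 (open squares) and in Notch2 mutant cells (triangles). Leaving out the vehicle library moves Nfkbie from 4.05 to 5.80 and Tnfaip3 from 3.77 to 4.87, and the interval of Rel spans 0 in each.

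Levels were compared between genes only per length, as CPM per kb of the exons of a gene (RPKM). In Notch2 mutant cells with vehicle Rela was the highest member at 20.7 ± 1.92 RPKM (SD, n = 4), above Nfkbia at 11.96 ± 0.609 and Nfkbib at 7.34 ± 0.501. Nfkb2 at 5.44 ± 0.536 and Nfkb1 at 5.42 ± 0.320 RPKM overlapped and did not differ beyond their spread, and Relb followed at 2.81 ± 0.251. Rel at 1.39 ± 0.159, Nfkbiz at 1.14 ± 0.187 and Nfkbie at 1.12 ± 0.153 RPKM overlapped with their neighbours in the order, and Tnfaip3 was lowest at 0.406 ± 0.0565. Control vehicle libraries had the same first 6 members in the same order, but every neighbour except Nfkbia and Nfkbib overlapped, with control vehicle replicate 4 included.

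With TNFα the order was the same in both genotypes. In Notch2 mutant cells Nfkbia led at 188 ± 12.8 RPKM, followed by Rela at 62.2 ± 1.93, Nfkbie at 50.9 ± 1.76, Nfkb2 at 39.3 ± 1.78 and Relb at 34.4 ± 3.01. Nfkbib at 19.0 ± 0.833, Tnfaip3 at 15.3 ± 1.51, Nfkb1 at 12.9 ± 0.532, Nfkbiz at 6.09 ± 0.683 and Rel at 1.39 ± 0.326 RPKM followed, and no neighbours overlapped. In control cells with TNFα the neighbours Rela and Nfkbie, Nfkb2 and Relb, and Tnfaip3 and Nfkb1 overlapped. The places of several members depended on the length used. The exons of Nfkb1 cover 12848 bases and its longest transcript 4802 bases. Per kb of the longest transcript Nfkb1 was at 14.5 RPKM in Notch2 mutant cells with vehicle, the third highest level, and at 34.5 RPKM with TNFα, the sixth highest. On that length, with TNFα, Nfkbie at 70.9 ± 2.46 RPKM stood before Rela at 69.4 ± 2.15 in Notch2 mutant cells, and Relb at 51.4 ± 4.503 before Nfkb2 at 44.03 ± 1.99 (SD, n = 4), and both pairs overlapped. In control cells with TNFα the means of both pairs stood in this same order, and Relb and Nfkb2 did not overlap.

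In the make-up of the subunit messages the share of Rela was lower with TNFα and the shares of Relb and Nfkb2 were higher. In Notch2 mutant cells Rela held 57.8 ± 0.805% of the summed RPKM of the 5 subunits with vehicle and 41.4 ± 1.03% with TNFα (SD, n = 4). Relb went from 7.86 ± 0.385 to 22.9 ± 1.82% and Nfkb2 from 15.2 ± 0.486 to 26.2 ± 1.48%, whereas Nfkb1 went from 15.2 ± 0.418 to 8.60 ± 0.351%. In each of these the vehicle and TNFα libraries did not overlap. In control cells without vehicle replicate 4 the share of Rela was 58.4% (57.1 to 60.05%, n = 3), and with TNFα it was 39.1 ± 0.139%. Per longest transcript the share of Rela in Notch2 mutant cells was 46.9% with vehicle and 34.6% with TNFα, and that of Nfkb1 was 29.5 and 17.2%. Relb then went from 8.52 to 25.6% and Nfkb2 from 12.3 to 21.9%, so that with TNFα the order of Relb and Nfkb2 depended on the length. Among the 5 inhibitors, Nfkbib went from 33.4 ± 2.02 to 6.82 ± 0.149% of their summed RPKM in Notch2 mutant cells, and Nfkbie from 5.11 ± 0.619 to 18.3 ± 1.48%, while Nfkbia held 54.4 ± 1.61 and 67.2 ± 1.28%. These are shares of messages and not of proteins.

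Notch2 mutant cells were then compared with control cells under TNFα, to ask whether the genotype changes the members once the pathway is active. Of the 10 members 3 were higher in Notch2 mutant cells and none was lower, where 5.63% of 19227 genes were higher and 4.31% were lower. No member differed 2-fold. Nfkb1 was 1.25-fold higher (95% interval 1.15 to 1.35, log2 0.32, SE 0.058), Rela 1.199-fold (1.10 to 1.31, log2 0.26, SE 0.062) and Tnfaip3 1.31-fold (1.18 to 1.46, log2 0.39, SE 0.074). Their edgeR adjusted p values were 0.000348, 0.0052 and 0.000612. For each of them the 4 Notch2 mutant libraries lay above the 4 control libraries, and the call held in all 8 fits that left out 1 library. The share of all genes with separate groups was not counted, so separation of groups here and elsewhere is description only. Without control TNFα replicate 4 the differences were 1.22-fold, 1.15-fold and 1.24-fold. Tnfaip3 was not called when all 16 libraries shared 1 estimate of the spread (adjusted p = 0.604).

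The other 7 members did not pass the test under TNFα. Nfkb2 was 1.14-fold higher in Notch2 mutant cells (1.03 to 1.25, edgeR adjusted p = 0.0881), with no overlap of the groups. The ratios of Notch2 mutant to control cells were 1.12 for Nfkbia (1.01 to 1.23), 1.09 for Nfkbib (0.983 to 1.22) and 1.08 for Nfkbie (0.985 to 1.19). Relb at 1.01 (0.913 to 1.11), Rel at 1.04 (0.869 to 1.24) and Nfkbiz at 0.921 (0.792 to 1.07) overlapped between genotypes, as did the other inhibitors. Their adjusted p values ranged from 0.154 to 0.96. The median log2 fold change of the 10 members was 0.14, beside -0.012 over all genes tested.

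Markers of other cells moved with the genotype. With TNFα the 15 macrophage markers summed to 92.5 to 109 CPM in control cells and 197 to 223 CPM in Notch2 mutant cells, and 13 of 15 were called higher. The 6 endothelial markers summed to 11.2 to 13.8 and 19.4 to 25.1 CPM. All 16 chondrocyte markers were lower in Notch2 mutant cells, with sums of 37704 to 44713 and 20468 to 23337 CPM. All 6 markers of fibroblasts and perichondrium were higher, with sums of 19300 to 21223 and 23191 to 27690 CPM. The part of these markers in the differences of Nfkb1, Rela and Tnfaip3 was not tested, and in bulk libraries fewer cells of a type and less RNA per cell cannot be told apart.

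With vehicle, Notch2 mutant cells were compared with control cells to see whether the members differ before stimulation. 1 member was called, and it was lower, where 4.35% of 19432 genes were lower and 6.19% were higher. Nfkbiz was at 8.40, 8.07, 7.72 and 11.9 CPM in control and 5.51, 5.49, 7.57 and 6.95 CPM in Notch2 mutant libraries, which did not overlap, a ratio of 0.713 (0.575 to 0.885, edgeR adjusted p = 0.0383). Without control vehicle replicate 4 the ratio was 0.800 (0.659 to 0.971) and was not called (adjusted p = 0.151). The call was also lost without control vehicle replicate 1, without Notch2 mutant vehicle replicate 1, 2 or 4, and when all 16 libraries were fitted together (adjusted p = 0.0618). Under vehicle too the macrophage markers were higher in Notch2 mutant cells, at 150 to 177 CPM against 78.6 to 86.9 CPM, and their part was not tested.

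The other 9 members were not called with vehicle, with or without control vehicle replicate 4. The ratio of Notch2 mutant to control cells moved with that library from 0.394 (0.0809 to 1.92) to 1.297 (1.02 to 1.66) for Nfkbie, from 0.485 (0.152 to 1.54) to 1.03 (0.809 to 1.32) for Tnfaip3 and from 0.731 (0.324 to 1.65) to 1.17 (1.03 to 1.33) for Nfkbia. Without it the ratios were 1.04 for Nfkb1 (0.957 to 1.13), 1.01 for Nfkb2 (0.913 to 1.13), 0.981 for Rela (0.890 to 1.08), 0.942 for Relb (0.817 to 1.09), 0.951 for Rel (0.804 to 1.12) and 0.9754 for Nfkbib (0.854 to 1.11). The median log2 fold change of the 10 members was -0.35 with all libraries and -0.0043 without control vehicle replicate 4.

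**Figure D4:**
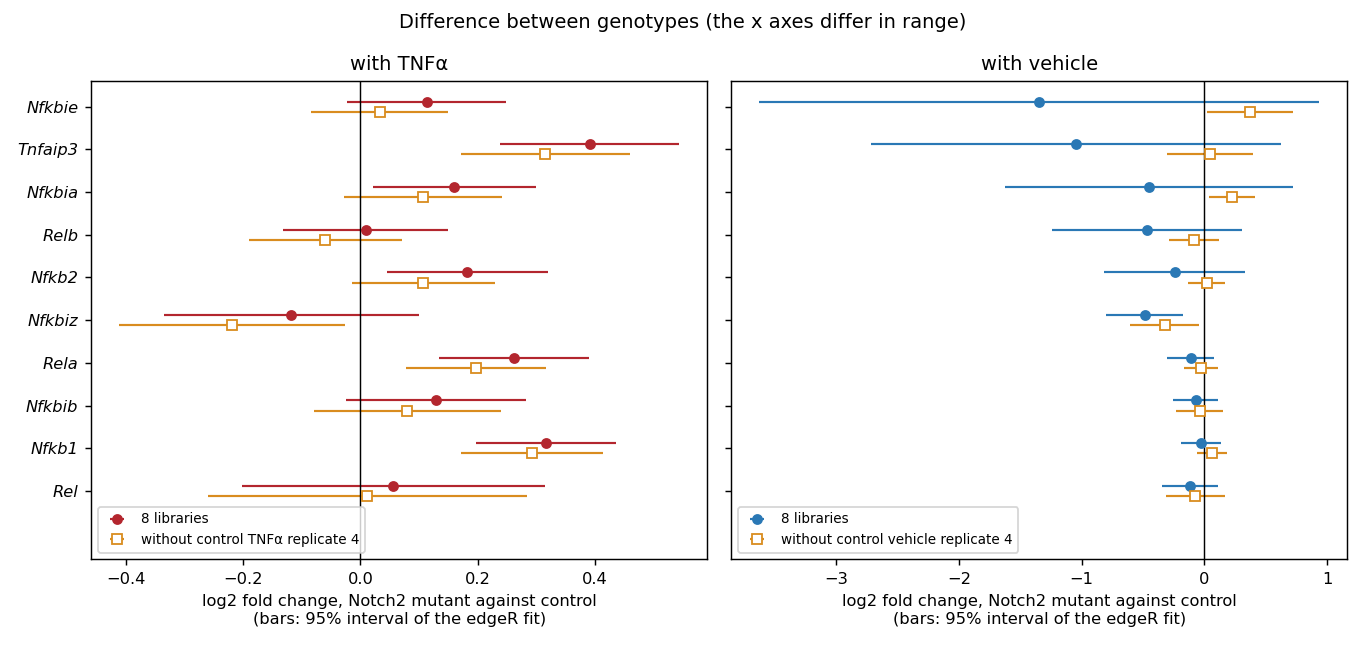
Log2 fold change of each member, Notch2 mutant against control, with 95% intervals of the edgeR fit, with TNFα (left) and with vehicle (right); open squares leave out the control library numbered 4 of that treatment. With TNFα Nfkb1, Rela and Tnfaip3 lie above 0 in both, and with vehicle Nfkbie, Tnfaip3 and Nfkbia move from below to above 0.

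The difference between the responses of both genotypes was tested directly as an interaction over the 16 libraries. No member was called by edgeR at an adjusted p under 0.05, where 0.474% of 21321 genes were, and none by DESeq2, which gave 2 members no adjusted p. At an unadjusted p under 0.05, 3 members passed, beside 8.71% of all genes. The response was 1.26-fold larger in Notch2 mutant cells for Nfkb1 (1.11 to 1.44, adjusted p = 0.119), 1.29-fold for Rela (1.11 to 1.49, adjusted p = 0.13) and 2.67-fold for Tnfaip3 (1.06 to 6.69, adjusted p = 0.534). Without control vehicle replicate 4 these were 1.17-fold (1.04 to 1.32), 1.198-fold (1.05 to 1.37) and 1.23-fold (0.967 to 1.56). Without Notch2 mutant vehicle replicate 1, Nfkb1 and Rela were called (adjusted p = 0.0345 and 0.0333). For Nfkbie the ratio of the responses was 2.78 (0.784 to 9.82) with all libraries and 0.822 (0.666 to 1.02) without control vehicle replicate 4. Without replicate 4 of both control groups this ratio was 0.795 (0.653 to 0.9675) and was not called (edgeR adjusted p = 0.462).

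Other genes of the pathway were read from lists. Of 11 IκB kinases and upstream kinases, 6 rose and 2 fell with TNFα in control cells, and 6 rose and 1 fell in Notch2 mutant cells. Over all genes tested 20.9% fell in control and 21.9% in Notch2 mutant cells, beside the 23.3 and 22.6% that rose. The rise of Tab1 in control cells, 1.16-fold, was not called without control vehicle replicate 4 (edgeR adjusted p = 0.0851) or without control TNFα replicate 4 (adjusted p = 0.062). Ikbke, the inducible IKKε, had the largest rise at 6.398-fold in control and 7.45-fold in Notch2 mutant cells, and Chuk, which encodes IKKα, was lower at 0.696 and 0.712 of vehicle. Without control vehicle replicate 4 Ikbke rose 7.65-fold in control cells. The median log2 fold change of the list was 0.21 in control and 0.25 in Notch2 mutant cells, beside 0.039 and 0.026 over all genes. Both other IκB genes rose, Bcl3 from 7.78 to 68.1 CPM and Nfkbid from 0.341 to 1.63 CPM in Notch2 mutant cells. Their median log2 fold change was 2.34 in control cells, 2.62 without control vehicle replicate 4, and 2.70 in Notch2 mutant cells. None of these kinase or IκB genes was called between genotypes with either treatment over all libraries. Without control TNFα replicate 4, Ikbke was called lower in Notch2 mutant cells with TNFα, at 0.809 of control (edgeR adjusted p = 0.0026), against 0.859 with it (adjusted p = 0.0779).

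Of 12 genes of ubiquitin editing and other brakes, 8 rose and 2 fell in control cells, and 9 rose and 2 fell in Notch2 mutant cells, beside 23.3 and 22.6% of all genes that rose and 20.9 and 21.9% that fell. The median log2 fold change was 0.53 and 0.52, beside 0.039 and 0.026 over all genes. The largest rise was that of Tnip3, a partner of A20, from at most 0.0513 to between 3.69 and 4.41 CPM in Notch2 mutant cells, and the largest fall was that of Itch, to 0.794 of vehicle. Between genotypes with TNFα, Tnip1, which encodes another A20 partner, was 1.29-fold higher and Zc3h12a, which encodes the ribonuclease Regnase-1, was 1.24-fold higher, whereas Rnf11, an A20 cofactor, was at 0.828 (edgeR adjusted p = 0.000928, 0.0167 and 0.00607). Over all genes 5.63% were higher and 4.31% lower. Without control TNFα replicate 4 the ratio of Zc3h12a was 1.18 and was not called (adjusted p = 0.0775). With vehicle Rnf11 alone was called, at 0.837 (adjusted p = 0.0101). Of 10 genes of the TNF receptor and linear ubiquitin complex, 7 rose and 1 fell in each genotype, where 23.3 and 22.6% of all genes rose and 20.9 and 21.9% fell in control and Notch2 mutant cells. This list had a median log2 fold change of 0.40 in control and 0.41 in Notch2 mutant cells. The rise of Tradd in control cells, 1.198-fold, was not called without control TNFα replicate 4 (edgeR adjusted p = 0.0737). Birc3, which encodes the ubiquitin ligase cIAP2, rose 8.68-fold in control and 13.4-fold in Notch2 mutant cells, and the receptor gene Tnfrsf1a was at 0.839 and 0.820 of vehicle. Without control vehicle replicate 4 Birc3 rose 12.3-fold in control cells. None of the 10 was called between genotypes.

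Of 21 classical NF-κB target genes, 17 rose and 1 fell in control cells, 20 rose and 1 fell without control vehicle replicate 4, and 19 of 20 rose and 1 fell in Notch2 mutant cells. Over all genes 23.3, 23.5 and 22.6% rose and 20.9, 21.6 and 21.9% fell. The median log2 fold change was 4.05, 5.59 and 4.99, and 3.95 in control cells with Csf2, which was at 0 in every vehicle library, set at its lower bound against 3 counts a library. Nos2, the inducible nitric oxide synthase, had the largest fitted rise in Notch2 mutant cells, from at most 0.311 to between 297 and 444 CPM. In control cells the rises of Nos2, Ccl5 and Cxcl10 were not called over all libraries and were called without control vehicle replicate 4 (edgeR adjusted p = 2.22e-23, 5.53e-10 and 2e-10, against 0.0713, 0.103 and 0.112 with it). Saa3, an acute phase gene, had the largest rise among the targets called in control cells over all libraries, at 24.9-fold (adjusted p = 0.042), and rose 478-fold without that library (adjusted p = 1.23e-09), where the fitted rises of Nos2, Ccl5, Cxcl10 and Cxcl2 were larger. The calls of Saa3 and Il6 in control cells were lost without control TNFα replicate 4 (adjusted p = 0.0697 and 0.119). Ptgs2, which encodes cyclooxygenase 2, was the gene that fell, to 0.554 of vehicle in control and 0.611 in Notch2 mutant cells. Between genotypes with TNFα 4 targets were higher, namely Il6, Ccl20, Cxcl5 and Vcam1 at 2.15, 1.78, 1.54 and 1.25-fold. Another 5 were lower, namely Icam1, Lcn2, Mmp3, Cxcl10 and Mmp13 at 0.730, 0.737, 0.801, 0.812 and 0.864 of control. Il6 was at low levels here, 0.394 to 0.993 CPM in control and 1.06 to 2.52 CPM in Notch2 mutant cells (edgeR adjusted p = 0.0359). Over all genes 5.63% were higher and 4.31% lower, and without control TNFα replicate 4 Traf1 and Saa3 were called lower as well. With vehicle 1 target was higher and 1 lower, where 6.19% of all genes were higher and 4.35% lower. Without control vehicle replicate 4, 6 of 18 targets tested were higher and 3 lower, where 5.78% of all genes were higher and 4.59% lower. No target was called in the interaction over all libraries. Without control vehicle replicate 4 the responses of Mmp3 and Mmp9 were called smaller in Notch2 mutant cells, where 102 of 21153 genes were called. Their ratios were 0.634 and 0.311 (edgeR adjusted p = 0.0342 and 0.000807).

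**Figure D5:**
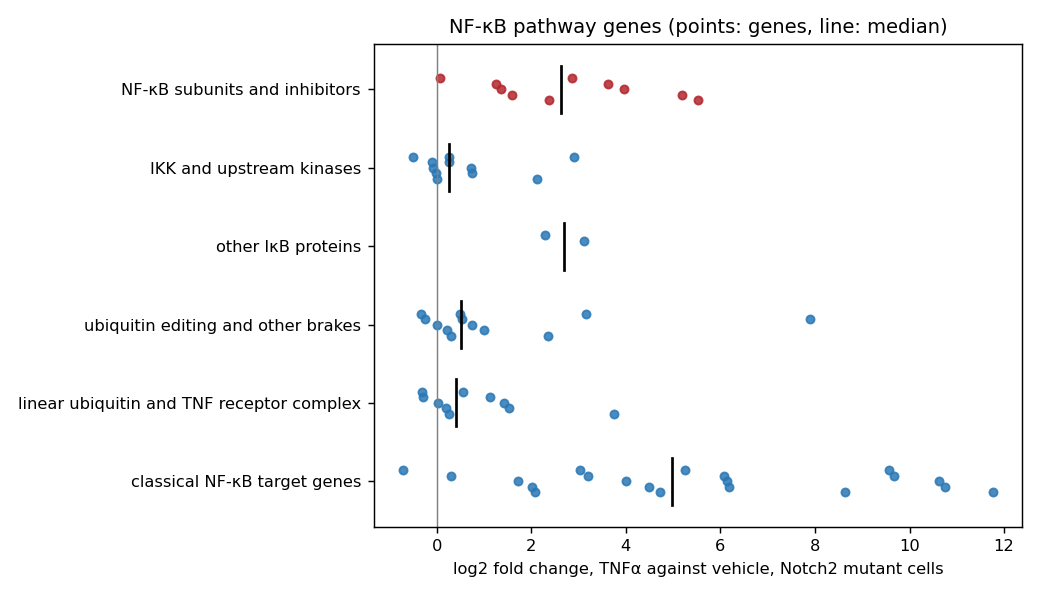
Log2 fold change of TNFα against vehicle in Notch2 mutant cells for the 10 members and the genes of 5 pathway lists; points are genes and lines are medians. The members, the 2 other IκB genes and the target genes have medians of 2.62, 2.70 and 4.99, and the kinases, brakes and receptor complex genes have medians between 0.25 and 0.52.

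The genes whose pattern was most like that of a member were found by the root mean square difference in log2 CPM over the 16 libraries, each gene centred on its own mean, among 9577 genes with a mean of at least 10 CPM. H2-K1, Slc43a2 and Ly6e were nearest to Nfkb2, at differences of 0.11, 0.117 and 0.123. Irf1, Cx3cl1 and Dtx3l were nearest to Nfkbia, at 0.116, 0.139 and 0.170. Pik3ip1, Il15ra and Camk1d were nearest to Nfkbiz, at 0.149, 0.163 and 0.183. Zfp329, Dstyk and Samtor were nearest to Rel, at 0.126, 0.132 and 0.133. Among the members themselves the smallest differences were those of Rela and Nfkbib at 0.122, Nfkb1 and Nfkbib at 0.153 and Nfkb1 and Rela at 0.178. The difference was 0.275 for Relb and Nfkbia, 0.321 for Nfkb2 and Nfkbiz and 0.367 for Nfkbie and Tnfaip3. These describe likeness over 16 libraries that share a treatment, with no test.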

How the data were processed

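The authors prepared stranded mRNA libraries, sequenced them in 1 pool with paired end reads, mapped them with HISAT2 and counted them with HTSeq. The authors deposited raw counts per gene for each library, and 5 entries that name no gene, which held 8.81 to 12.1% of a library, were left out. The sample annotation names GRCm38 with HISAT2 2.1.0, whereas the study's text names GRCm39, and the strand setting of the counting is not given in the sources used here, so reads of overlapping genes on opposite strands may not have been separated. Identifiers were named with GENCODE M39 (54749 of 55414 matched). Counts were normalized with TMM to counts per 1000000 counts on genes (CPM), genes with a sum under 10 counts in the compared libraries were dropped, and edgeR 4.0.16 quasi-likelihood tests in R 4.3.3 were run on all genes, with Benjamini-Hochberg adjustment and an adjusted p under 0.05 as the threshold. Alternatives were DESeq2 1.42.0, RLE normalization, other filters, 1 fit of all 16 libraries, a replicate block, and libraries left out. The pipeline was run on simulated data with the same spread for every gene and no deviating library. That run does not cover a group like control vehicle, where replicate 4 stood apart. Precision depended on the spread between libraries as well as on the counts per library. For Nfkbie in control cells the interval was 3.91 to 70.3 with all libraries. Without control vehicle replicate 4 it was 47.7 to 65.1. The SE and intervals are those of the edgeR fit to the libraries compared, and are not the spread within a single group.

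The members and the gene lists were chosen with earlier results of these data known. All members were named in every comparison. Of each list the largest rise and fall among the called genes were named, with up to 3 others beside small counts. The target genes Lcn2, Mmp3, Cxcl10, Cxcl2 and Mmp13 and the example Icam1 were named after their values were seen. So were some, but not all, of the list genes whose calls changed without a replicate 4.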

Additional observations from a re-analysis of the deposited data

Results flagged for a closer look

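Of 40 sets of 4 replicates (10 members in 4 groups), 7 held a library farther from its group than Dixon's 95% limit, where chance gives about 1 in 20. The library was control vehicle replicate 4 in 6 of the 7, as the highest of its group: Nfkb2 was at 76.6 CPM, Relb at 33.69 CPM and Nfkbia at 67.25 CPM. In the same library Nfkbie was at 36.36 CPM, Nfkbiz at 11.9 CPM and Tnfaip3 at 21.07 CPM. The remaining value was Nfkb2 in control TNFα replicate 4, at 241.2 CPM the lowest of its group. All 7 values lie between those of the vehicle and TNFα libraries of the other control replicates, and their source was not tested.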

How the results depend on the processing

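The counts of members called with TNFα stayed at 9 in each genotype under the edgeR alternatives, apart from 8 in control cells with a 2-fold minimum, and was 7 there with DESeq2. Between genotypes with TNFα the count was 2 to 4, except that a 2-fold minimum left 0. With vehicle the count was 1, and 0 with a 2-fold minimum, with all 16 libraries in one fit and without replicate 4 of every group, and it ranged from 0 to 1 over the fits that left out 1 library. The interaction count was 0, 2 with no filter beyond 1 count, and 0 to 2 over the fits that left out 1 library.

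Some differences that were not called changed sign, and the cause was not tested. Relb between genotypes with TNFα was -0.0035 (log2) in the fit of 16 libraries and -0.0088 without replicate 4 of every group. In the latter setting the vehicle differences were 0.061 for Nfkb1, 0.0297 for Nfkb2, 0.2396 for Nfkbia and 0.4627 for Nfkbie, and the interactions -0.1745 for Nfkbia and -0.4186 for Nfkbie. Without replicate 4 of both control groups these interactions were -0.1185 and -0.331. With 1 library left out, Rel with TNFα in Notch2 mutant cells ranged from -0.0197 to 0.1374. Between genotypes with TNFα, Relb ranged from -0.0598 to 0.0478 and Rel from -0.0449 to 0.126. With vehicle the ranges were -0.0768 to 0.0597 for Nfkb1, -0.3468 to 0.0198 for Nfkb2, -0.652 to 0.2251 for Nfkbia, -1.672 to 0.3754 for Nfkbie and -1.3045 to 0.0471 for Tnfaip3. For the interaction they were -0.0936 to 0.8029 for Nfkbia and -0.2819 to 1.8025 for Nfkbie.

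With the replicate block the counts of members called were 9, 9, 3, 1 and 0 for TNFα in control cells, TNFα in Notch2 mutant cells, genotype with TNFα, genotype with vehicle and the interaction, as without it. Samples with the same number deviated together by a correlation over 0.1 in every pair of none of the comparisons, so the numbers were not taken to pair the samples. Depth limited Rel most, with 26 counts in the shallowest library.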
